A study of Mus musculus with 16 samples.

Results

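Cathepsins are proteases that work mostly in the acid interior of endosomes and lysosomes. The genes described here are the 10 whose symbols are Ctsa, Ctsb, Ctsc, Ctsd, Ctse, Ctsh, Ctsk, Ctsl, Ctss and Ctsz, chosen by name out of the 54532 genes in the deposited tables. Cathepsins are made as inactive precursors, carried to the lysosome by receptors that recognise mannose 6-phosphate, and activated there by removal of a propeptide, while cystatins and related proteins block them when they escape. Lung macrophages are known for high cathepsin content, with which they digest engulfed surfactant, dead cells and matrix fragments. The family is grouped by name and by the shared compartment and not by catalytic chemistry: Ctsb, Ctsc, Ctsh, Ctsk, Ctsl, Ctss and Ctsz encode papain-like cysteine proteases, Ctsd and Ctse encode aspartic proteases, and Ctsa encodes a serine carboxypeptidase.

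RNA was sequenced from cells washed out of the airways (bronchoalveolar lavage cells) of mice aged 8 to 10 weeks. The strain is given as C57BL/6 in the study's design and spelled C56BL/6J in the sample labels. Each mouse group had received saline or bleomycin, a DNA-damaging drug used to model lung fibrosis, through the oropharynx 14 days earlier, bleomycin at 4 U per kg of body weight. The 4 groups were saline males (libraries C70, C71, C72 and C73), saline females (C74, C75, C76 and C77), bleomycin males (C33, C65, C66 and C67) and bleomycin females (C49, C50, C68 and C69). The labels do not say whether a library came from 1 mouse or several, and name no batch or pair, so the tests measure the spread between these libraries. All lists of values below follow the order of libraries given here.

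Each library held between 16385784 and 24567609 counts in genes. Xist was at 222 to 827 CPM in female libraries and at most 0.229 CPM in male libraries, and the Y-linked Eif2s3y had 0 counts in the females, so these genes matched the sex labels. Macrophage markers were present throughout, as the lavage label implies: the summed level of 15 resident alveolar macrophage markers was 21139 to 30183 CPM under saline and 14244 to 27837 CPM under bleomycin. In the average over the sexes 11 of these 15 fell, 2 rose and 2 did not pass. Of the 15257 genes tested 34.7% rose in that average, and 63.6% changed in either direction. Of 14 markers of monocyte-derived macrophages 13 reached the filter on low counts in the saline libraries and 12 of these rose, and the summed level of the 14 was 1145 to 1439 CPM under saline and 6770 to 14546 CPM under bleomycin, with Ly6c2 at 0 counts in saline females. The 12 T cell markers summed to 3.06 to 9.83 CPM under saline and 224 to 645 CPM under bleomycin, 8 B cell markers to 137 to 166 and 231 to 523 CPM, 8 natural killer cell markers to 0.620 to 2.0 and 23.7 to 56.9 CPM, and 9 dendritic cell markers to 25.9 to 59.7 and 322 to 722 CPM. Most T, B and natural killer cell markers passed the filter only through the bleomycin libraries. Among the 8 B cell markers 2, Ighm and Cd22, reached it in the saline libraries. The 5 red blood cell markers summed to 7.23 to 441 CPM under saline and 67.3 to 6018 CPM under bleomycin, ranges that overlap. The levels of these lists thus differed between the treatments, and their part in the changes below was not tested. In a bulk sample, fewer cells of a type and less RNA per cell cannot be told apart.

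All 10 genes were higher after bleomycin than after saline, in males and in females. The rise was largest, apart from the rare transcript Ctse, in Ctsb (3.96-fold), Ctsl (3.81-fold) and Ctsd (3.51-fold), intermediate in Ctsk (2.82-fold) and Ctss (2.76-fold), and smallest in Ctsz (1.88-fold), Ctsh (1.57-fold), Ctsa (1.51-fold) and Ctsc (1.36-fold), as the average of the sexes. Of the 9 genes that had substantial counts in every library, 9 rose and 0 fell in edgeR's quasi-likelihood test at a Benjamini-Hochberg adjusted p below 0.05, where 34.7% of the 15257 genes tested rose. The largest adjusted p among these 9 was 3.13e-06, that of Ctsc. Within males all 9 rose against 31.5% of all genes tested, and within females all 9 rose against 26.7%. Their median log2 fold change was 1.46 in the average, 1.41 in males and 1.36 in females, beside a median over all genes tested of 0.01, 0.02 and 0.02. In each of the 9 genes every bleomycin library lay above every saline library, which held for 19.3% of all genes tested. Within males such a gap was found in 29.8% of all genes, and within females in 23.8%. Ctse passed the filter on low counts only through its bleomycin libraries, so it had to differ and is described separately.

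**Figure D1:**
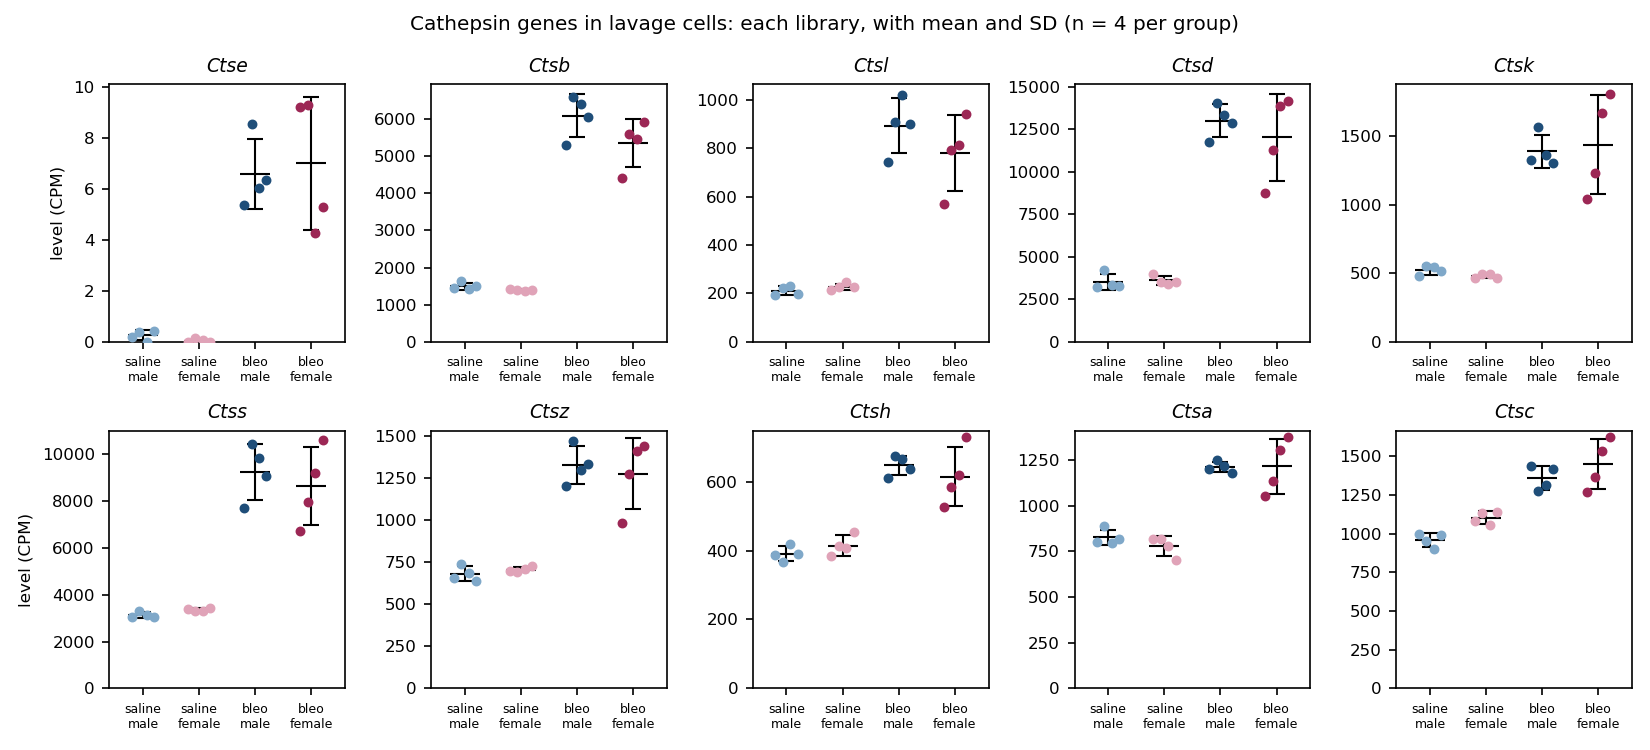
Level of each cathepsin gene in CPM (vertical axis, starting at 0, scale different for each gene) in the 16 libraries, by group. Points are libraries, long bars the group mean and short bars 1 SD (n = 4 libraries per group). In every panel the 8 bleomycin libraries lie above the 8 saline libraries, from Ctsb with 1357 to 1628 CPM under saline and 4417 to 6608 CPM under bleomycin to Ctsc with 898 to 1138 CPM and 1268 to 1627 CPM.

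The promoters of these genes are shown for the members whose contrast in response, or whose position next to each other, the results below turn on. Windows run from 250 bases before to 50 bases after the RefSeq gene start, read from the strand of the gene on GRCm38.p6, and 7 of the 10 genes have such a window (not Ctsb, Ctse or Ctsh). The words searched on both strands were CACGTG, the core of the E-box, and TCACGTG, a longer word that contains it and belongs to the element bound by TFEB and its relatives at lysosomal genes. The others were GAGGAAG, a core bound by the macrophage factor PU.1, and TGANTCA, the word of AP-1. CACGTG stood in 3 of the 7 genes (Ctsa, Ctsd and Ctsl), and in 8.09% of the 27025 genes with a window (7.15% of 32851 windows). The first 3 sequences below are these windows, of which Ctsd and Ctsl had large rises and Ctsa a small one, and capitals mark CACGTG together with the flanking T or A where the word is TCACGTG. For Ctsa this is the second of 2 RefSeq windows, and it lies inside the annotated gene span given below. The first, chr2:164832622-164832921, covers the annotated start and held none of the words searched. The Ctsl window also lies inside the annotated span of its gene. Positions therefore count from the RefSeq start of each window.
Ctsd, chr7:142387778-142388077, minus strand: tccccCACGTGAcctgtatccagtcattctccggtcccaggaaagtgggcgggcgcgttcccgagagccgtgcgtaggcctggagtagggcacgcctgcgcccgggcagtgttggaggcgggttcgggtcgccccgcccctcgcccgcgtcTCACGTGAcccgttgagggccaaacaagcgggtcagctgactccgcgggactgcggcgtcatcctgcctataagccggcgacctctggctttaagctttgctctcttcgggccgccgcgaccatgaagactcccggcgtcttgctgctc
Ctsl, chr13:64370471-64370770, minus strand: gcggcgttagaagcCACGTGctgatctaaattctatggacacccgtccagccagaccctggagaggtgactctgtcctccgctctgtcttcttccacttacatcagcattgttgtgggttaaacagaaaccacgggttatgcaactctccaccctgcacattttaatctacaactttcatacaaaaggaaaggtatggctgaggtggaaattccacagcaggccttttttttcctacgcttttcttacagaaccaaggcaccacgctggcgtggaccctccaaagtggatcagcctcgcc
Ctsa, chr2:164833523-164833822, plus strand: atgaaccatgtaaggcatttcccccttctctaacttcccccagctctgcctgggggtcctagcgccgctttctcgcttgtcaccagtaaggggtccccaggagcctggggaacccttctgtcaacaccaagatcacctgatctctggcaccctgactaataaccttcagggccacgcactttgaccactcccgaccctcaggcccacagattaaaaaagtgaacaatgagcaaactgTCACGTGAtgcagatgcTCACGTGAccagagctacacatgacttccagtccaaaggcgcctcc
The Ctsd window held CACGTG at positions -245 and -98 from its RefSeq start, the printed Ctsa window at -12 and 6, and the Ctsl window at -236. TCACGTG was found in 2 of the 7 genes, Ctsa and Ctsd, and in 4.29% of all genes (3.77% of windows). The genes with CACGTG had log2 fold changes of 1.81 (Ctsd), 1.93 (Ctsl) and 0.60 (Ctsa).

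Ctsk and Ctss are shown because they are neighbours. Their annotated spans on chromosome 3 lie 17423 bases apart, both on the plus strand, with 0 annotated genes between them. Capitals mark GAGGAAG or its reverse complement CTTCCTC.
Ctsk, chr3:95498960-95499259, plus strand: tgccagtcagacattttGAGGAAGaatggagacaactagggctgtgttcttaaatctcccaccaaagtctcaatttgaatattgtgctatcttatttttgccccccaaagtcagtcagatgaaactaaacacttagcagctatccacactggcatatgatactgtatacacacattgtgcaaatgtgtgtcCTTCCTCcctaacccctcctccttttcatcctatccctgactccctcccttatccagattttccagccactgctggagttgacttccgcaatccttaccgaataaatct
Ctss, chr3:95526536-95526835, plus strand: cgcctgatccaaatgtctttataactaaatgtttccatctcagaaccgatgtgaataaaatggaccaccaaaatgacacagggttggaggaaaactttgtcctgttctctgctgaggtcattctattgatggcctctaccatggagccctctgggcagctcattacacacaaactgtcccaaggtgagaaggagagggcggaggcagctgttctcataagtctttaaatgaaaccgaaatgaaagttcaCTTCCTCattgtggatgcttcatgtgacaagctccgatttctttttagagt
GAGGAAG was found in 3 of the 7 genes, at -233 and -59 in Ctsk, at -1 in Ctss, and at -197 and -150 in Ctsc, and in 15.4% of all genes (13.6% of windows). TGANTCA was found in 0 of the 7 genes and in 8.97% of all genes (7.81% of windows), which says only that these letters are not in these windows. A match is a description of the letters and not of binding.

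Among the cysteine endopeptidases, Ctsb and Ctsl rose most. Ctsb encodes a protease that also trims dipeptides from protein ends, and lies on chromosome 14, 63122462 to 63145923 on the plus strand (GRCm38, as for all positions here). Its levels were 1442, 1628, 1415 and 1495 CPM among the saline males and 1413, 1408, 1357 and 1391 CPM among the saline females, and 5299, 6608, 6408 and 6051 CPM among the bleomycin males and 4417, 5610.1, 5467 and 5924 CPM among the bleomycin females. The groups did not overlap between treatments, and the lowest bleomycin libraries were C49 and C33. The log2 fold change was 2.03 (SE 0.10) in males and 1.94 (SE 0.10) in females, with edgeR adjusted p of 1.81e-11 and 3.36e-11. Fdft1 overlaps the end of Ctsb on the opposite strand and held 1.84% as many counts. Whether the counting used strand is not given in the sources used here, which applies to each overlap named below.

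Ctsl encodes cathepsin L, a strong endopeptidase of the lysosome that can also cut elastin and collagen, on chromosome 13, 64359337 to 64370890 on the minus strand. It stood at 192, 224, 229.8 and 198 CPM among the saline males and 216, 226, 246 and 226 CPM among the saline females. Under bleomycin it stood at 744, 911, 1023 and 901 CPM among males and 569, 795, 814 and 944 CPM among females. Again no bleomycin library reached down to a saline library, and C49 was lowest and C66 highest of the 8. The log2 fold change was 2.08 (SE 0.13) in males and 1.77 (SE 0.13) in females, with edgeR adjusted p of 3.96e-10 and 2.87e-09.

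Ctss and Ctsk, the neighbouring genes, rose 2.76-fold and 2.82-fold in the average. Ctss encodes cathepsin S, which stays active at neutral pH and trims the invariant chain from MHC class II molecules, and lies on chromosome 3, 95526786 to 95556403 on the plus strand. Its levels were 3028, 3326, 3141 and 3034 CPM among the saline males, 3379, 3290.3, 3302 and 3453 CPM among the saline females, 7692, 10428, 9844 and 9062 CPM among the bleomycin males and 6737, 7961, 9218 and 10621 CPM among the bleomycin females. The bleomycin libraries lay above all saline libraries and were lowest in C49 and C33. The log2 fold change was 1.56 (SE 0.12) in males and 1.36 (SE 0.12) in females, with edgeR adjusted p of 7.48e-09 and 4.57e-08.

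Ctsk encodes cathepsin K, the collagen-cleaving protease best known from bone-resorbing osteoclasts, on chromosome 3, 95499256 to 95509362 on the plus strand. Its levels were 480.1, 556, 544 and 517 CPM among the saline males, 468, 495, 492 and 465 CPM among the saline females, 1326, 1565, 1360.2 and 1304 CPM among the bleomycin males and 1039, 1232, 1672 and 1810.4 CPM among the bleomycin females. The bleomycin females were widely spread, with C49 and C50 below the 4 bleomycin males and C68 and C69 above them. The log2 fold change was 1.41 (SE 0.13) in males and 1.58 (SE 0.13) in females, with edgeR adjusted p of 8.22e-08 and 2.01e-08. The SD was 363 CPM among the bleomycin females and 119 CPM among the bleomycin males.

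The aminopeptidase and carboxypeptidase members of the cysteine class changed less. Ctsz, a carboxypeptidase on chromosome 2, 174427493 to 174439039 on the minus strand, ranged over 641 to 741 CPM among the saline males, 689.6 to 727 CPM among the saline females, 1202 to 1473 CPM among the bleomycin males and 981 to 1443 CPM among the bleomycin females, a log2 fold change of 0.91 (SE 0.074, edgeR adjusted p 4.83e-09) in the average. Ctsh, an aminopeptidase that also takes part in the maturation of surfactant protein in alveolar epithelium, lies on chromosome 9, 90054152 to 90076089 on the plus strand. It ranged over 366 to 419, 384 to 455, 612 to 674 and 526 to 729 CPM in the same order of groups, a change of 0.65 (SE 0.064, edgeR adjusted p 7.33e-08). The gap between the treatments was narrow in Ctsh, where the highest saline library (C77) and the lowest bleomycin library (C49) were 455 and 526 CPM. Of 9 epithelial markers 6 rose, 2 fell and 1 did not pass, where 34.7% of all genes rose and 63.6% changed in either direction. The summed level of these markers was 741 to 882 CPM in saline libraries and 254 to 486 CPM in bleomycin libraries. Their part in the Ctsh level was not tested. Nelfcd overlaps Ctsz by its end on the opposite strand and held 3.46% as many counts.

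Ctsc encodes cathepsin C, the dipeptidyl peptidase that activates the serine proteases of neutrophil, mast cell and cytotoxic granules, on chromosome 7, 88278085 to 88310888 on the plus strand. It was the member with the smallest rise. Its levels were 999, 955, 898 and 989.9 CPM among the saline males and 1080.5, 1136, 1058 and 1138 CPM among the saline females, and 1438, 1277, 1311 and 1418 CPM among the bleomycin males and 1268, 1366, 1531 and 1627 CPM among the bleomycin females. Saline males lay below saline females without overlap, and both lay below every bleomycin library. The log2 fold change was 0.50 (SE 0.084) in males and 0.39 (SE 0.084) in females, with edgeR adjusted p of 6.72e-05 and 0.000857.

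The serine carboxypeptidase gene Ctsa, whose product also holds neuraminidase 1 and beta-galactosidase in a protective complex, lies on chromosome 2, 164832873 to 164841032 on the plus strand. It ranged over 797 to 891 CPM among the saline males, 702 to 821 CPM among the saline females, 1181 to 1252 CPM among the bleomycin males and 1053 to 1377 CPM among the bleomycin females. The change was 0.60 (SE 0.062, edgeR adjusted p 1.39e-07), with bleomycin males close together and bleomycin females spread from C49 to C69. Pltp, the phospholipid transfer protein gene, overlaps Ctsa on the opposite strand and held 15.9% as many counts, the largest such share in the family.

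The aspartic protease genes are Ctsd, among the highest members, and Ctse, the lowest. Ctsd encodes cathepsin D, an abundant lysosomal endopeptidase, on chromosome 7, 142375911 to 142388038 on the minus strand. Its levels were 3246, 4211, 3335 and 3282 CPM among the saline males, 3960.3, 3544, 3408 and 3532 CPM among the saline females, 11777, 14037, 13367 and 12879 CPM among the bleomycin males and 8739, 11305, 13884 and 14164 CPM among the bleomycin females. Among the saline males C71 stood apart on the high side, and among the bleomycin females C49 was lowest, but no library crossed between the treatments. The log2 fold change was 1.89 (SE 0.14) in males and 1.74 (SE 0.14) in females, with edgeR adjusted p of 2.63e-09 and 8.32e-09. The protein-coding gene Gm49369 overlaps Ctsd on the same strand and held 0 counts. Pseudogenes lie on the same strand within Ctsl (Gm49230, 0 counts) and Ctss (Hmgb1-ps5, 0.0469% as many counts). Whether such overlaps took reads from the cathepsin genes was not tested.

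Ctse encodes cathepsin E, an endosomal aspartic protease of the gut lining and of immune cells, on chromosome 1, 131638306 to 131675505 on the plus strand. It was nearly absent under saline: the saline males held 4, 7, 0 and 9 counts and the saline females 0, 3, 1 and 0. The 0 counts allow up to 0.161 CPM in C72, 0.175 CPM in C74 and 0.183 CPM in C77 (3 counts of the library total). Bleomycin males held 123, 163, 122 and 142 counts and bleomycin females 189, 221, 82 and 86, which is 5.36, 8.54, 6.05 and 6.35 CPM and 9.20, 9.29, 4.28 and 5.28 CPM. The ratio of bleomycin to saline CPM, scaled by library total, was 21.6 in males (95% exact interval 13.9 to 35.7) and 123 in females (47.9 to 454), intervals that cover counting error only. Of the 4 counts in saline females 3 came from C75, and without it the fitted log2 fold change in females moved from 6.94 to 8.16. C49 and C50, with 9.20 and 9.29 CPM, were the highest bleomycin libraries for Ctse, and C68 was the lowest. The 3 libraries with the lowest Ctse levels, C33, C68 and C69, were also the 3 lowest for the summed markers of T cells (224 to 266 CPM against 461 to 645 CPM in the other 5), B cells (231 to 288 against 394 to 523 CPM), natural killer cells (23.7 to 31.1 against 40 to 56.9 CPM) and dendritic cells (322 to 491 against 504 to 722 CPM). The part of these cells in the Ctse level was not tested.

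**Figure D2:**
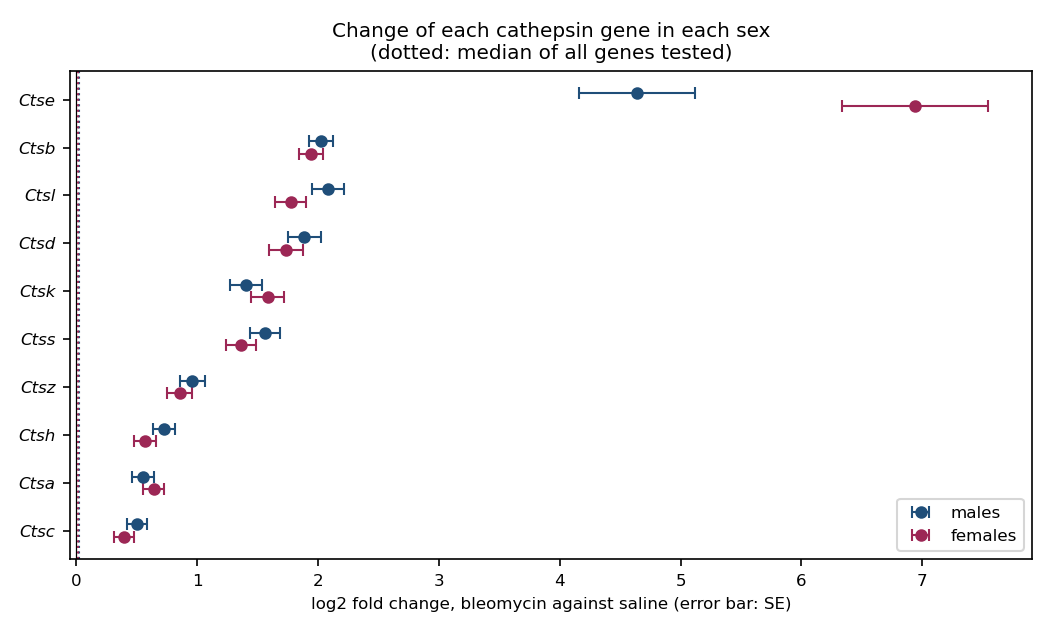
Log2 fold change of each cathepsin gene, bleomycin against saline, in males and in females (horizontal axis), with bars of 1 SE on each side, from the edgeR model. The dotted lines mark the median of all genes tested, 0.02 in each sex. All points lie to the right of the dotted lines, with Ctsb at 2.03 and 1.94 and Ctsc at 0.50 and 0.39 in males and females.

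Levels of different genes were compared per gene length, as FPKM. The deposited length ran from 1358 bases (Ctss) to 6489 bases (Ctsl). The order, ranks and shares of FPKM below rest on it, and its match to the transcripts in these cells was not tested. In mean CPM, without length, Ctsd lay above Ctss, at 3518 and 3132 CPM in saline males and 13015 and 9256 CPM in bleomycin males. The order by FPKM follows. Ctss was the highest member in every group and Ctsd came next: Ctss stood at 2301 ± 99.6 FPKM in saline males and 2459.9 ± 58.6 FPKM in saline females, and Ctsd at 1493 ± 195 and 1529 ± 105 FPKM (mean ± SD, n = 4). Below them under saline came Ctsz (472 ± 30.0 FPKM in males), Ctsk (346 ± 21.4 FPKM) and Ctsb (246 ± 15.4 FPKM), each separated from the next by ranges that did not overlap. Ctsa (175 ± 9.03 FPKM) and Ctsc (165 ± 8.22 FPKM) overlapped in saline males, and in saline females Ctsc lay above Ctsa without overlap. Ctsh, Ctsl and Ctse closed the order in both sexes. The lowest of them, Ctse, reached at most 0.137 FPKM under saline.

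The order was partly different after bleomycin. Ctss rose to 6746 ± 844 FPKM in males and 6252 ± 1146 FPKM in females, and Ctsd to 5479.5 ± 387 and 5028 ± 1021 FPKM, so that the ranges of the leading pair overlapped. Ctsb, below Ctsz and Ctsk under saline, stood at 996 ± 92.0 FPKM in bleomycin males and 871 ± 103 FPKM in bleomycin females, where its range overlapped those of Ctsz and Ctsk. Ctsl stood at 136 ± 17.3 and 118 ± 22.9 FPKM and overlapped Ctsh, which it had been well below under saline. Among 22046 protein-coding genes ranked by mean FPKM, Ctss was 6th in all 4 groups. Ctsd went from 14th and 15th in saline males and females to 9th and 8th, and Ctsb from 114th and 136th to 32nd and 35th.

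**Figure D3:**
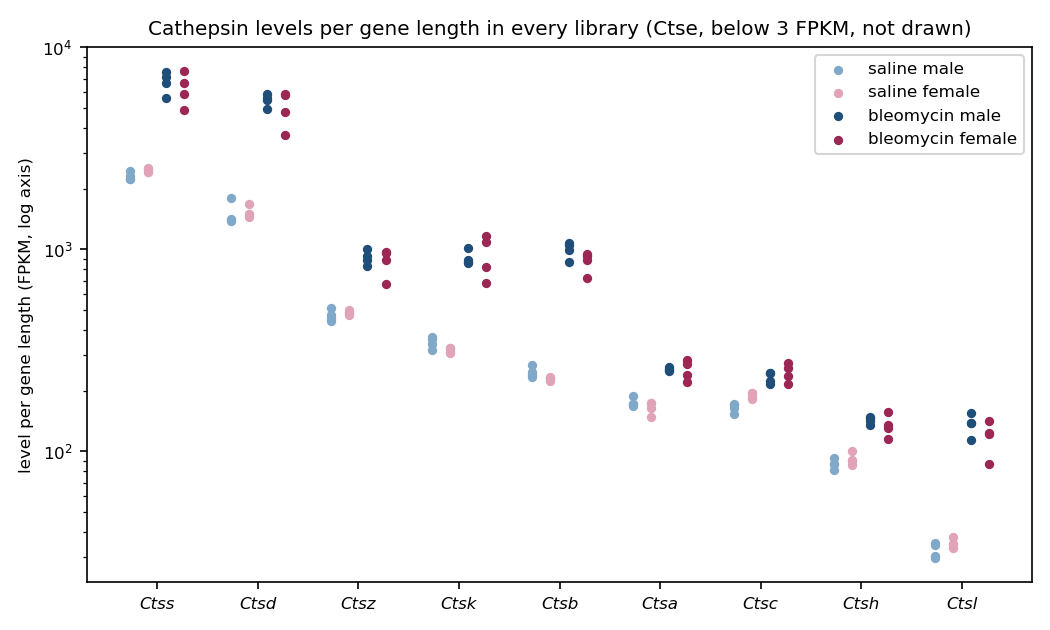
Level per gene length of 9 cathepsin genes in FPKM (vertical log axis) in each of the 16 libraries, ordered by the mean over all libraries. Points are libraries, and Ctse, at most 2.92 FPKM, is not drawn. Ctss and Ctsd stand above the other genes in all groups, and the bleomycin points of Ctsb and Ctsl are level with those of Ctsz and Ctsk and of Ctsh.

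The family as a whole took a larger share of the library after bleomycin. Its 10 genes held 1.27 ± 0.0723% of all counts in saline males and 1.30 ± 0.00875% in saline females, against 3.23 ± 0.199% in bleomycin males and 3.05 ± 0.327% in bleomycin females (SD, n = 4). The lowest bleomycin library was C49 at 2.60% and the highest saline library C71 at 1.37%. Of the summed FPKM of the family, Ctss held 43.3 ± 1.04% in saline males and 42.6 ± 1.55% in bleomycin males. The share of Ctsd was 28.0 ± 1.72% and 34.7 ± 0.779%, that of Ctsb 4.64 ± 0.156% and 6.30 ± 0.0845%, and that of Ctsz 8.88 ± 0.187% and 5.77 ± 0.234%. The shares of Ctsa, Ctsc and Ctsh were lower after bleomycin, that of Ctsc going from 3.11 ± 0.284% to 1.48 ± 0.227%.

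Ratios of 2 members within a library do not depend on how libraries are scaled, and were used to ask which members rose by different amounts. This test was added after the levels had been seen. Among the 36 pairs of the 9 genes other than Ctse, the log2 ratio differed between treatments in 32, by a two-sided exact permutation test that exchanged treatments within each sex (4900 arrangements, smallest possible p 0.00041) with Benjamini-Hochberg adjustment over the 36 pairs. The largest change was in Ctsb over Ctsc, at 1.53 (SE 0.067), and Ctsb over Ctsz changed by 1.08 (SE 0.038). In both of these every bleomycin library lay above every saline library. The share of differing pairs among other genes was not computed, so the count describes these 9 genes and sets them apart from no others.

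The 4 pairs that did not pass were Ctsb with Ctsl, at 0.06 (SE 0.059, exact permutation adjusted p 0.366), Ctsd with Ctsl, at -0.11 (SE 0.070, adjusted p 0.144), Ctsa with Ctsh, at -0.05 (SE 0.066, adjusted p 0.52), and Ctsk with Ctss, at 0.03 (SE 0.051, adjusted p 0.698). The last pair is the one that lies side by side on chromosome 3. Its ratio fell by 0.15 on the log2 scale in males and rose by 0.20 in females, a contrast between the sexes that was not tested. A ratio that misses the threshold does not show that both genes rose alike.

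Among the bleomycin libraries the same few were repeatedly lowest or highest. C49 was the lowest of the 8 in 9 of the 10 genes, all but Ctse, and C69 was the highest in 6 (Ctsa, Ctsc, Ctsd, Ctsh, Ctsk and Ctss). The share of all genes with these extremes was not computed. C49 had the highest TMM scaling factor of the 8, 1.03 against 0.863 to 0.969, which lowers its CPM in every gene. For Ctsc it held more counts than C65 (26051 against 24373) from a smaller total (19994223 against 21240382), so its lowest place there rests on the scaling. C69 had the lowest factor, 0.863, which raises its CPM in every gene. As a share of all counts, without this factor, the 10 genes held 3.34% in C69 and 3.44% in C65. The high places of C69 thus rest in part on the scaling. C65 was highest for Ctsb and Ctsz, C66 for Ctsl and C50 for Ctse. C33 was the next lowest library for Ctsb, Ctsl, Ctss and Ctsz. The summed level of monocyte-derived macrophage markers was also lowest in C49 (6770 CPM), next lowest in C33 (8774 CPM) and highest in C66 (14546 CPM). That of resident macrophage markers was lowest in C49 (14244 CPM) and highest in C69 (27837 CPM). The part of either in the order of libraries was not tested. C33, C49 and C50 are numbered apart from the other libraries, and without these 3 the 9 genes other than Ctse still rose in both sexes. In that fit the female log2 fold change was 1.79 for Ctsk and 1.89 for Ctsd, against 1.58 and 1.74 with them.

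No member passed the main test between males and females. Under saline edgeR called 0 of the 10 genes, where 0.269% of all genes were called, and 2 had an unadjusted p under 0.05, as had 9.56% of all genes. These were Ctsc, at -0.20 (males minus females, approximate 95% interval -0.36 to -0.03, edgeR adjusted p 0.467), and Ctse, at 2.20 from 20 against 4 counts (interval 0.45 to 3.95, adjusted p 0.446). DESeq2 and limma voom also called 0 of 10, with 2 and 1 at an unadjusted p under 0.05. A fit of the 8 saline libraries alone called Ctsc, at -0.21 with an edgeR adjusted p of 0.0414. Saline males also lay above saline females without overlap in Ctsb, at 0.10 (interval -0.09 to 0.29, adjusted p 0.736), where 13.2% of all genes had no overlap in either direction.

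Under bleomycin edgeR called 0 of 10 between the sexes, against 0.059% of all genes, with 0 at an unadjusted p under 0.05 (3.97% of all genes), 1 by DESeq2 and 0 by limma voom, which called 0 as well. The largest difference was that of Ctsl, 0.20 higher in males on the log2 scale (interval -0.05 to 0.44), and the ranges of the sexes overlapped in all 10 genes. Without C33, C49 and C50, which left C68 and C69 as the bleomycin females, edgeR again called 0 members. In that fit 3 had an unadjusted p under 0.05, and the share of all genes below it was not computed. Ctsk was then at -0.28, and 670 of the 15707 genes tested were called, so the 3 members are not set apart from other genes. The test of whether the bleomycin change differed between the sexes also called 0 of 10 (0.00655% of all genes). It gave 1 gene at an unadjusted p under 0.05 in edgeR (7.88% of all genes), 1 in DESeq2 and 0 in limma voom. That gene in edgeR was Ctse, at -2.30 (SE 0.96, adjusted p 0.612), which rests on the 20 and 4 counts under saline. For the other 9 genes the difference of the changes ran from -0.18 in Ctsk to 0.31 in Ctsl, with intervals of -0.54 to 0.19 and -0.04 to 0.66.

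Of 15 further genes of the cathepsin name or fold, 4 passed the filter on low counts, 3 of them in the saline libraries. Of these 3, Ctsw rose and Ctsf fell in the average, where 63.6% of all genes changed in either direction. Tinagl1 passed the filter only through the bleomycin libraries and had to rise. Ctsw, a cathepsin of natural killer and cytotoxic T cells, stood at 0.930, 1.20, 1.08 and 0.968 CPM among the saline males and 0.721, 0.565, 0.788 and 0.511 CPM among the saline females, and at 20.5, 34.8, 28.1 and 35.7 CPM among the bleomycin males and 45.2, 31.2, 15.5 and 19.6 CPM among the bleomycin females. Its change was 5.13 (SE 0.24), and it was highest in C49, the library where the 10 genes above were mostly lowest. T cell markers were at 562 CPM in C49, against 645 CPM in C65, the highest library, and their part in the Ctsw level was not tested. Ctsf, which trims the invariant chain in macrophages, was lower after bleomycin in every library: 27.7 to 32.6 and 27.5 to 31.9 CPM among the saline males and females and 15.9 to 17.5 and 15.2 to 21.7 CPM under bleomycin, a change of -0.78 (SE 0.074, edgeR adjusted p 3.75e-08). Ctso did not pass, at 0.09 (edgeR adjusted p 0.132), and was lower, at -0.13, when libraries were scaled by their totals alone. Tinagl1, which lacks the catalytic cysteine, was at 0.163 ± 0.190 CPM among the saline males and 3.18 ± 0.400 CPM among the bleomycin males and passed the filter through the bleomycin groups.

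Among the inhibitors Cst3 and Cstb rose under each scaling. Of 16 listed inhibitors 15 were in the table and 6 could be tested, of which Cst6, Cst7 and Ctla2a passed the filter only through the bleomycin libraries and had to rise. The other 3 rose, where 34.7% of all genes rose. Of these 3, Serpinb6a, at 0.30 (SE 0.073), did not pass with scaling by library totals alone (0.08, edgeR adjusted p 0.2). Cst3, encoding the secreted inhibitor cystatin C, stood at 334, 341, 353 and 339.8 CPM among the saline males, 404, 389, 367 and 433 CPM among the saline females, 812, 1361, 1161 and 1065 CPM among the bleomycin males and 749, 948, 1004 and 1281 CPM among the bleomycin females. The treatments did not overlap, and C49 and C33 were again the lowest bleomycin libraries. The change of Cst3 was 1.5 (SE 0.10), and that of Cstb, the cytosolic inhibitor cystatin B, was 1.29 (SE 0.10), from 158 ± 10.9 to 394 ± 62.1 CPM among males. Cst7, the lysosomal inhibitor cystatin F, and Ctla2a, which resembles a cathepsin propeptide, were near 0 under saline, with 3.33 ± 1.64 and 5.56 ± 2.47 CPM among the bleomycin males.

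Genes that process, carry and regulate cathepsins moved in both directions. Of 24 tested 13 rose, 6 fell and 5 did not pass in the average, where 34.7% of all genes rose. A change in either direction was called in 63.6% of all genes. The median log2 fold change of the 24 was 0.31. Scaled by library totals alone, which moved the median of all genes to -0.20, 11 rose, 11 fell and 2 did not pass, with a median of 0.09, so the smaller changes in this list are relative to the scaling. Lgmn, encoding legumain, the protease that trims several cathepsins to their final form, ranged over 172 to 221 and 180.2 to 197 CPM among the saline males and females and 851 to 1265 and 691 to 1146 CPM under bleomycin. Its change was 2.42 (SE 0.10). The 3 sorting receptors had unlike values. Igf2r, the large mannose 6-phosphate receptor that also binds IGF2, ranged over 2.01 to 3.20 and 1.76 to 3.50 CPM among the saline males and females and over 73.8 to 105 and 56.5 to 94.4 CPM after bleomycin, a change of 4.82 (SE 0.15). M6pr, the small receptor for the same tag, stood at 471 to 508 CPM among the saline males and 489.8 to 522 CPM among the bleomycin males and did not pass, at 0.03 (SE 0.053, edgeR adjusted p 0.635), but fell by 0.19 with library totals alone. Sort1, the alternative carrier sortilin, was lower in all bleomycin libraries, 1704 to 1901 against 1055 to 1469 CPM among males and 1679 to 1910.2 against 1177 to 1405 CPM among females, a change of -0.50 (SE 0.070).

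**Figure D4:**
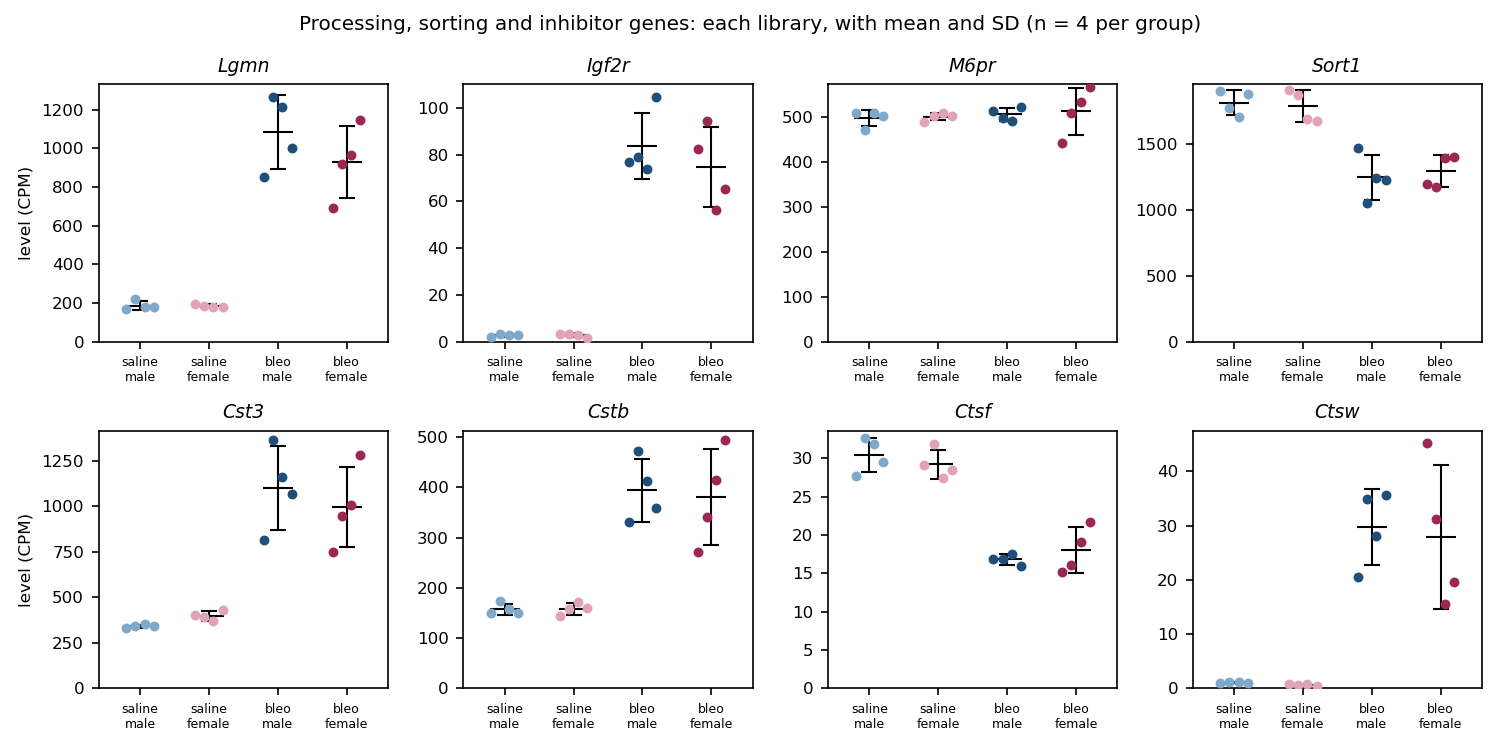
Level in CPM (vertical axis, starting at 0, scale different for each gene) of 8 genes that process, sort, inhibit or resemble the cathepsins, in the 16 libraries by group, with mean and 1 SD (n = 4). Lgmn, Igf2r, Cst3, Cstb and Ctsw are higher in every bleomycin library, Sort1 and Ctsf lower, and M6pr overlaps between the treatments (442 to 565 CPM among the bleomycin females and 489 to 507 CPM among the saline females).

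Of the remaining genes in that list, the lysosomal membrane gene Lamp1 rose by 0.86 (SE 0.064) and the proton pump subunit gene Atp6v1a by 0.75 (SE 0.057). The genes that fell with Sort1 were Nagpa (-0.28) and Gnptg (-0.26), which take part in making the mannose 6-phosphate tag, the adaptor gene Gga1 (-0.14), and Tfeb (-0.24) and Mitf (-0.20), related transcription factors of lysosomal and melanocyte genes. Gnptab (-0.14), Gga3 (-0.09), Vps35 (-0.0019) and Spi1 (-0.10), the gene of PU.1, did not pass. With library totals alone these 4 fell, by 0.35, 0.30, 0.21 and 0.32 on the log2 scale. Tfe3, a relative of Tfeb, rose by 0.43 (SE 0.055).

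Lists of genes drawn up around single members were counted next. All 5 genes listed as Ctsa complex and sphingolipid genes rose, where 34.7% of all genes rose. Their median was 0.72. Psap, the saposin precursor, rose by 1.66 (SE 0.079) and Gm2a, the ganglioside activator, by 1.0. Glb1, beta-galactosidase, rose by 0.72, Galns, a sulfatase, by 0.56, and Neu1, neuraminidase 1, by 0.32 (SE 0.060). With library totals alone 4 of the 5 rose, and Neu1, at 0.10, did not pass. Ctsa itself, at 0.60, lay between Galns and Glb1. Of the 9 class II presentation genes, the pathway Ctss serves, 8 rose and 1 fell, where 34.7% of all genes rose. The median of the 9 was 1.24, and with library totals alone 7 rose and 1 fell. Of 9 dendritic cell markers 8 reached the filter in the saline libraries and 8 of these rose, and of 8 B cell markers 2 did and both rose. The B cell marker Cd22 rose by 0.15 and did not pass with library totals alone (-0.06, edgeR adjusted p 0.372). The part of these cells in the class II levels was not tested. Cd74, the invariant chain, stood at 733 ± 105 CPM among the saline males and 2699 ± 535 CPM among the bleomycin males, a change of 1.99 (SE 0.12), and H2-Eb1, H2-Aa and H2-Ab1, chains of the class II molecules, rose by 2.79, 2.19 and 2.14. H2-DMa, part of the peptide-loading dimer, fell by 0.39 (SE 0.095).

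The granule proteases that Ctsc activates were scarce. Of 11 listed 4 could be tested, of which Gzma, Gzmb and Gzmk were near 0 under saline and passed the filter only through the bleomycin libraries. Prf1, perforin, listed with them as a granule protein, rose. The means of Gzma, Gzmb, Gzmk and Prf1 in bleomycin males were 2.0 ± 0.735, 1.29 ± 0.377, 1.26 ± 0.410 and 4.44 ± 1.91 CPM, against 1361 ± 79.0 CPM for Ctsc. Gzmb and Prf1 are themselves among the natural killer cell markers, and the part of these cells was not tested. The neutrophil proteases Elane and Prtn3, named after their values were seen, did not exceed a mean of 0.147 CPM in any group. The 9 neutrophil markers summed to 84.0 to 127 CPM under saline and 189 to 234 CPM under bleomycin. Among the 5 that reached the filter in the saline libraries, 3 rose, 1 fell and 1 did not pass, where 34.7% of all genes rose. The part of neutrophils in the granule protease levels was not tested. Genes of osteoclasts, where Ctsk is best known, could be tested for 9 of 11 listed, 5 of which passed the filter only through the bleomycin libraries. Of the other 4, 2 rose and 2 did not pass, where 34.7% of all genes rose. With library totals alone 1 of these rises, Tnfrsf11a, did not pass. Acp5, the acid phosphatase, went from 169 ± 26.6 to 685 ± 23.9 CPM among males (1.94, SE 0.090), while Dcstamp, the fusion receptor, Itgb3, the integrin chain, and Car2, a carbonic anhydrase, were below 1 CPM under saline and passed the filter through bleomycin, at 8.00 ± 0.993, 12.7 ± 4.18 and 3.50 ± 1.53 CPM among the bleomycin males. Nfatc1, the regulator of osteoclast formation, did not pass at 0.09 (edgeR adjusted p 0.254), nor did the pump gene Atp6v0d2 at 0.10 (adjusted p 0.296). Of 11 matrix genes and matrix proteases 10 were tested. All 8 that reached the filter in the saline libraries rose, where 34.7% of all genes rose. Mmp14, the membrane matrix protease, changed by 6.84 (SE 0.15), Mmp12, macrophage elastase, by 5.24 (SE 0.21), Spp1, osteopontin, by 5.28 (SE 0.13), and Timp2, an inhibitor of matrix proteases, by 2.46 (SE 0.075). Between the sexes edgeR called 0 genes of these lists in any comparison, cell type markers apart. Of the 9 dendritic cell markers 1 was called higher in saline males, against 0.269% of all genes called under saline.

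**Figure D5:**
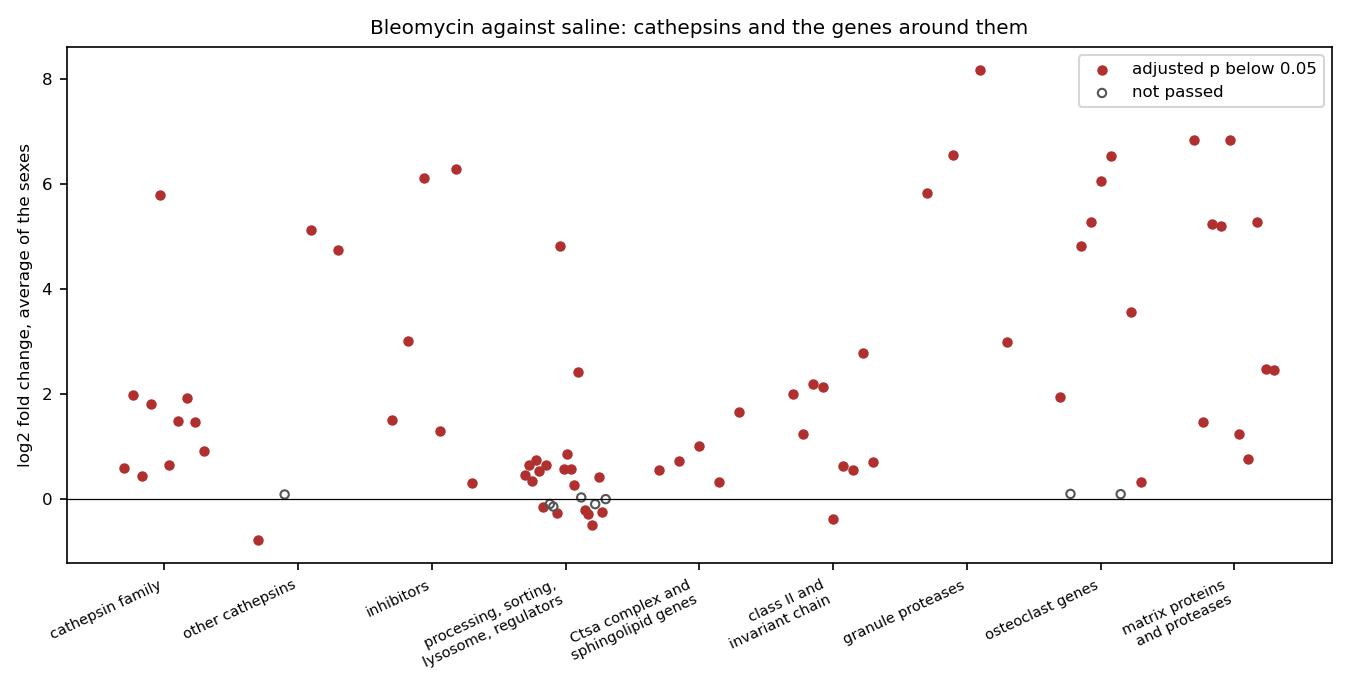
Log2 fold change of bleomycin against saline, average of the sexes (vertical axis), for the cathepsins and 8 lists of genes around them, cell type markers not drawn (1 point per gene that passed the filter on low counts, grouped along the horizontal axis). Filled points had an edgeR adjusted p below 0.05 and open points did not. The 10 cathepsin genes lie between 0.45 and 5.79, and the list of processing, sorting and regulator genes has the most points below 0 of the lists drawn.

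The genes most like each member over the 16 libraries were found by the root mean square difference of centred log2 CPM, among 8686 protein-coding genes with a mean of 10 CPM or more. The difference between treatments is part of this measure, so the values are descriptions. Ctsz was closest to Lamp1 (0.0589), the lysosomal membrane gene above, and Ctsh to Fuca2 (0.0594), a fucosidase gene. Ctss was closest to Cst3 (0.0876), the gene of its inhibitor cystatin C, and next to the class I gene H2-K1 (0.0880). Ctsa was closest to Glmp (0.0649) and Sgpl1 (0.0679), and Ctsc to Lmbrd1 (0.0693) and Slc39a1 (0.0697). Ctsb and Ctsl shared their closest gene, Fabp5 (0.125 and 0.149), a fatty acid binding protein gene that was listed as a resident macrophage marker but rose by 2.05. Ctsd was closest to the ferritin gene Fth1 (0.113) and Ctsk to the gelsolin gene Gsn (0.125) and the galactosidase gene Gla (0.138). For Ctse the closest gene, Sema4d, was far less alike (0.479).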

How the data were processed

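The authors deposited raw counts per Ensembl gene and FPKM. Per the submitters' processing notes they used fastp 0.12.2, HISAT2 2.0.5 and featureCounts 1.5.0-p3, and name the builds mm9 and mm10; the deposited coordinates equal GRCm38 (GENCODE M21) for 98.3% of the identifiers matched. The authors' FPKM equal counts over gene length over a constant per library. Replicate pairs differed by more than sampling noise (chi-square per gene at least 4.50).

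From the counts, 1 model with a coefficient per group was fitted to 16 libraries in edgeR 4.0.16 (R 4.3.3; filterByExpr, minimum count 10; TMM; quasi-likelihood F test), with adjustment over 15257 genes. CPM are scaled by total and TMM factor. The SE is approximate, the log2 fold change over the root of F. The fit was tested on simulated data. DESeq2 1.42.0, limma 3.58.1, other filters and scalings, and leaving libraries out were alternatives. The members and all lists were chosen with earlier results of these data known. Genes named from a list are mainly the 4 with the smallest adjusted p in the averaged comparison and those against its majority, or all where 5 or fewer were measured. Others were named outside this rule, among them Tfe3, Cd22, Tnfrsf11a, Elane and Prtn3. Promoter sequences are RefSeq's. Protein sequences and the authors' tables of comparisons were not used here.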

Additional observations from a re-analysis of the deposited data

Results flagged for a closer look

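Among 40 groups of 4 libraries (10 genes in 4 groups), 1 held a library far from the other 3. In Ctsd, saline male C71 stood at 4211 CPM, while the nearest other saline male was at 3335 CPM, a gap of 0.907 of the group's whole range. Chance alone flags about 1 in 20 such groups. C71 also had the highest saline share of counts in the family (1.37%) and the highest monocyte-derived marker level among the saline libraries (1439 CPM), whose part in the Ctsd level was not tested. Without C71 the 9 genes other than Ctse still rose in males.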

How the results depend on the processing

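The 9 genes other than Ctse rose in males, in females and in the average with library totals alone, DESeq2 size factors, no filter, a stricter filter, DESeq2, limma voom, without C33, C49 and C50, and leaving out each library. The compared groups alone were fitted for males and for females, where the 9 rose too, and not for the average. Library totals alone moved the median of all genes from 0.01 to -0.20 and the share of rises among called genes from 54.6% to 34.7%, and the smallest member change, that of Ctsc, was then 0.23. Calls of the gene lists under the scalings were compared after seeing the data, and DESeq2 size factors changed 0 list counts. Leaving out C75 moved the female change of Ctse from 6.94 to 8.16, leaving out C33, C49 and C50 moved it to 6.31, and leaving out C72 or C73 moved the male change from 4.64 to 4.22 or 5.04. Between the sexes 0 members were called under saline, under bleomycin and for the interaction, also when each library was left out. The exception was the fit of the saline groups alone, which called 1 member, Ctsc. That fit also called 765 genes under saline in place of 41; without a filter 119 were called, by DESeq2 191, without C33, C49 and C50 277, and 20 (without C76) to 76 (without C49) when leaving out each library in turn, with 26, 21, 21, 24 and 23 without C70, C72, C73, C75 and C77. Under bleomycin 9 genes differed between the sexes, against 14 without a filter and 670 without C33, C49 and C50. For the interaction 1 gene was called, against 15 without a filter, 23 by DESeq2, 77 without C33, C49 and C50, and 0 with library totals, the stricter filter, limma voom or without any 1 of C33, C49, C50, C66, C67, C69, C70, C73, C75, C76 and C77. The causes were not tested. The place of the members in the order of FPKM was the same in 38 of 40 cases after rescaling every library to 1 common total and without C67, C68 or C69, and in 40 when leaving out each other library (38 to 40). The ratio differed in 32 of 36 pairs in every leave-out. Depth limits Ctse under saline, with 20 counts in males and 4 in females. No paired analysis was possible because the groups share no replicate codes.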
